A study of Meleagris gallopavo with 8 samples.

Results

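The genes described here encode, in the cell nucleus, subunits of the mitochondrial respiratory chain and of ATP synthase. They were chosen by name from the transcripts that the authors assembled from turkey breast muscle. A gene was a member when its name began as those of complex I to V genes do (NDUF, SDH, UQCR, COX4 to COX8, ATP5, or CYC1 or CYCS) and stood on a transcript that matched a reference transcript exactly, was contained in one, or was a variant sharing a splice junction with one. The rule found 43 genes among 7360 gene names assembled in this sense. Each stood in 1 locus, so they took 43 of 23108 loci. Complex I had 19 members, complex II 3, complex III 6, complex IV 5 and complex V 10. Of the 43, 41 are known as proteins of the chain or of ATP synthase. COX4NB and ATP5S only share the naming: COX4NB is a neighbour of a cytochrome oxidase gene and belongs to a complex of the endoplasmic reticulum membrane, and ATP5S, called coupling factor B, is not counted as a subunit.

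The study compared 4 normal samples with 4 samples of pale, soft and exudative (PSE) meat, a defect in which breast meat is light and holds water poorly. All came from the pectoralis major of random-bred (RBC2) turkeys killed at 22 weeks, and the class of a sample was set by its marinade uptake at 24 h after slaughter, high for normal meat and low for PSE meat. Normal and PSE birds shared line, age, tissue and husbandry, and no treatment separated them. The deposited count table has 8 columns of values without names. No source used here ties a column to a sample, so the columns are called 1 to 8 by their place in the table, no column is called normal or PSE, and no comparison of the 2 kinds of meat was made.

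Complex I takes electrons from NADH and complex II takes them from succinate, ubiquinone carries them to complex III, and cytochrome c carries them on to complex IV, which passes them to oxygen. Complexes I, III and IV pump protons, and complex V, the ATP synthase, uses the return of protons to make ATP. Complexes I, III, IV and V also contain subunits made from mitochondrial DNA, whereas complex II is wholly nuclear. Breast muscle of poultry consists mostly of fast fibres that rely on glycolysis, in which mitochondria are fewer than in leg muscle.

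The 8 columns held 7389830 to 12066951 counts, with column 2 the deepest. The 10 loci with the most counts took up to 29.6% of a column. The fast fibre gene TNNI2 stood at a median of 6685 counts per 1000000 counts of its column (CPM) per kb of exon, and the slow troponin gene TNNC1 at 2279. Of 18 muscle fibre markers 6 were assembled under their symbols. The others were MYL2 at 1306, on only 5407 counts, PVALB at 6.22, MB at 5.44 and the slow troponin gene TNNI1 at 2.17. Of markers of other cells, summed endothelial markers ranged from 100.2 to 187 CPM over the columns, leukocyte markers from 96.1 to 216, fat cell markers from 68.7 to 183 and fibroblast markers from 708 to 7102, whereas none of 5 listed red blood cell genes was assembled. In bulk muscle, fewer fibres with many mitochondria and less RNA per fibre cannot be told apart.

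The members were among the abundant transcripts of the muscle. The level of a gene is given below as CPM per kb of the exons of its locus, as the median over the 8 columns with the lowest and the highest column. Of the 43 members 41 stood at or above 10, against 42.1% of all 7271 loci with an assembled gene name. The median member stood at 122 and the median of all those loci at 7.7. By level, 33 members were in the top 10% of these loci, a class that holds 10.0% of them by construction. Together the members took a median of 0.748% of all counts, from 0.645% in column 2 to 0.911% in column 3.

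**Figure D1:**
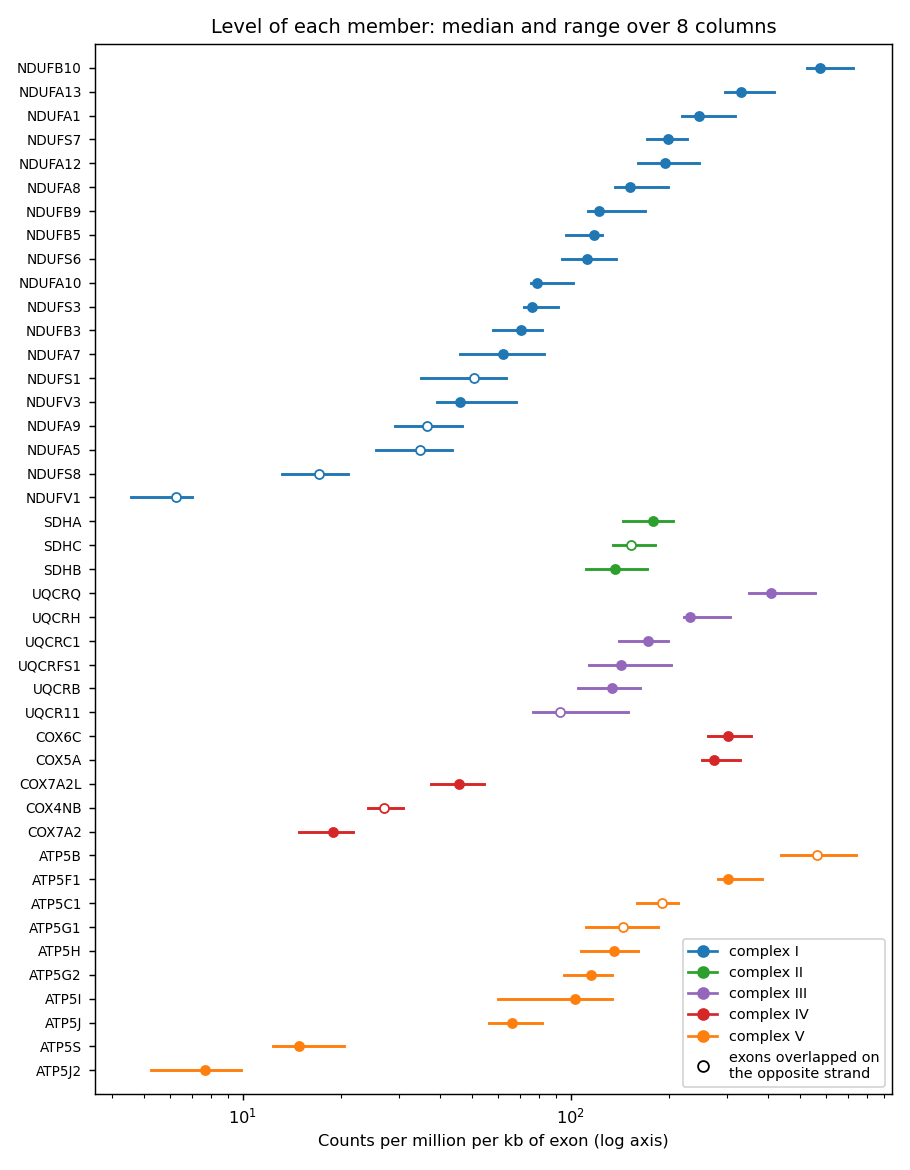
Level of each of the 43 members in CPM per kb of exon (log axis), grouped by complex; points are medians and bars the lowest and highest of 8 columns, and open points mark loci whose exons are overlapped by a locus on the other strand. Levels run from 6.26 for NDUFV1 to 575 for NDUFB10, and most neighbours in the order overlap in range.

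Among the complex I members, the highest level belonged to an accessory subunit. NDUFB10, an accessory subunit of the membrane arm, stood at 575 (525 to 726) on chromosome 16 from 6437910 to 6439447, plus strand, and was the first of all 43 by level. NDUFA13, an accessory subunit also known as GRIM-19, followed at 331 (295 to 416), and NDUFA1, a small membrane-arm subunit, at 246 (219 to 318). The ranges of NDUFB10 and NDUFA13 over the columns did not overlap, and neither did those of NDUFA13 and NDUFS7.

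The core subunits, some of which bind the cofactors that carry the electrons, spread over a wide range of levels. NDUFS7, whose iron-sulphur cluster hands electrons to ubiquinone, stood at 199 (171 to 227) on chromosome 30 from 2751756 to 2754505, plus strand. NDUFS3 stood at 76.4 (72.2 to 91.3). NDUFS1, the largest core subunit and a carrier of iron-sulphur clusters, stood at 50.9 (35.0 to 63.6). By exonic length of the locus these 3 genes did not overlap one another in range. Per base of its own transcript, NDUFS1 stood at 83.1 (57.0 to 104), which turned its order with NDUFS3 and overlapped it.

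The other 2 core genes were much lower. NDUFS8, an iron-sulphur subunit next to NDUFS7 in the electron path, stood at 17.1 (13.2 to 21.0). NDUFV1, which binds NADH, stood at 6.26 (4.56 to 7.03), the lowest of all 43. Per base of its own longest transcript NDUFV1 stood at 12.1 (8.79 to 13.5), above ATP5J2. They were also the closest pair of members in the genome, 105 kb apart on chromosome 5, with NDUFV1 from 6186412 to 6208189 and NDUFS8 from 6313493 to 6314648, both on the plus strand. Loci on the opposite strand covered 84.2% of the exonic length of NDUFS8 and 56.4% of that of NDUFV1. Those opposite-strand loci held 545 counts beside 859 of NDUFS8, and 2697 beside 2171 of NDUFV1, summed over the 8 columns. No source used here says whether the counting used strand, so reads of the 2 strands cannot be told apart, and the part of this overlap in the low levels was not tested.

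Over the 5 core members the median level was 50.9 (35.0 to 63.6 over the columns), and over the 14 accessory members 114 (95.4 to 128). Of the core genes, 3 had exons overlapped on the opposite strand. The 2 that did not, NDUFS3 at 76.4 and NDUFS7 at 199, had a median of 139 (122 to 159). The 12 accessory genes without such overlap stood at 121 (105 to 153), with overlapping ranges. This alternative was added after the data were seen. It left out the 3 lowest core genes by exonic length, so the core median had to rise. The part of overlap in the core level was not tested.

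The remaining accessory genes filled the range between. NDUFA12 at 195 and NDUFA8 at 151 were the next highest, NDUFA9 stood at 36.6 (29.1 to 46.8) and NDUFA5 at 34.6 (25.5 to 43.4). NDUFA5 and NDUFA9 were the lowest accessory members, and both had exons overlapped on the opposite strand, over 43.9% and 16.6% of their exonic length. NDUFB5 stood at 118 (96.5 to 125), in a locus that also carries transcripts named USP13. Were all counts of the locus those of NDUFB5, its own transcript alone would stand at 336. The locus has 5108 exonic bases and the NDUFB5 transcript 1790, and reads of USP13 were not split off.

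Complex II links the chain to the citric acid cycle. By exonic length its 3 members lay close together. SDHA, the flavoprotein that oxidises succinate, stood at 179 (145 to 206), SDHC, a membrane anchor, at 153 (135 to 181), and SDHB, the iron-sulphur subunit, at 137 (112 to 171). All 3 ranges overlapped, so this order is not separated by the spread between columns. SDHA, on chromosome 3 from 34886131 to 34894539, minus strand, had 48116 counts in all, the most after ATP5B. Its locus of 3921 exonic bases also carries the name FH. With all counts of the locus divided by its own longest transcript, the level was 469 (381 to 540), clear of SDHB and SDHC. Any reads of FH are included in that value, so the gap may not be that of SDHA alone. SDHB lay on chromosome 23 from 177330 to 185870, plus strand, with 3 transcripts. SDHC lay on a scaffold that is not placed on a chromosome.

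Complex III passes electrons from ubiquinol to cytochrome c. UQCRQ, one of its small subunits, was highest at 408 (349 to 555). UQCRH, the hinge protein near cytochrome c, stood at 232 (222 to 306), and UQCRC1, a large core protein of the matrix side, at 172 (140 to 198). UQCRFS1, the Rieske iron-sulphur protein that carries the electron to cytochrome c1, stood at 143 (114 to 202), and UQCRB, a subunit close to the quinone site, at 134 (105 to 162). By exonic length UQCRQ was clear of the other 5 in range, while UQCRC1, UQCRFS1 and UQCRB overlapped. UQCR11, a small membrane subunit, was lowest at 93.0 (76.7 to 150), but its locus on chromosome 30 also carries the name TCF3. Per base of its own longest transcript, of 494 bases, UQCR11 stood at 505 (416 to 812), above UQCRQ. On the same measure UQCRFS1 stood at 279 (222 to 395), above UQCRH at 237, and its range overlapped that of UQCRQ.

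Complex IV reduces oxygen, and only its nuclear structural subunits are at issue here. COX6C stood at 301 (262 to 354) and COX5A at 275 (252 to 329), with overlapping ranges. COX7A2, which in mammals is the widely expressed form of a subunit that has a separate heart and skeletal muscle form, stood at 18.9 (14.9 to 21.8). Its 590 counts in all were the fewest of any member. The smallest single value, 55 counts in column 1, carries an exact 95% Poisson interval of 41.4 to 71.6 counts, which covers counting error only. COX7A2L, which in mammals helps to join complexes III and IV into supercomplexes, stood at 45.8 (37.6 to 54.4). COX4NB stood at 26.9 (24.1 to 30.8). A locus on the opposite strand covered 3.91% of the exonic length of COX4NB and held 14408 counts, beside 2843 of COX4NB. The part of this overlap in its level was not tested. No transcript carried the names COX4I1, COX6A1, COX6A2 or COX7A1, and whether they are held under other names is unknown here.

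The ATP synthase members were led by ATP5B, the catalytic beta subunit, at 562 (439 to 743). It lay on an unplaced scaffold, had 64418 counts, the most of any member, and did not differ from NDUFB10 beyond the spread between columns. ATP5C1, the gamma subunit of the rotating stalk, stood at 190 (159 to 212), below ATP5B in every column. Of the peripheral stalk, ATP5F1 (subunit b) stood at 301 (281 to 383), ATP5H (subunit d) at 135 (107 to 161) and ATP5J (coupling factor 6) at 66.3 (56.6 to 81.7). ATP5G1 and ATP5G2 both encode the c subunit of the membrane ring, with the same mature protein in mammals. By exonic length they stood at 144 (111 to 185) and 115 (95.5 to 134), with overlapping ranges. Per base of its own longest transcript ATP5G1 stood at 198 (153 to 254), clear of ATP5G2. A locus on the opposite strand covered 72.1% of the exonic length of ATP5G1. ATP5I, the small membrane subunit e, stood at 103 (60.0 to 134). ATP5J2, the membrane subunit f, was lowest at 7.69 (5.26 to 9.91), with an exact match of 4 exons and no overlap on the other strand. ATP5S stood at 14.9 (12.4 to 20.4). Of neighbours in the order of levels, 40 of the 42 pairs overlapped in range. COX4NB above COX7A2 and ATP5S above ATP5J2 were the exceptions.

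By complex, the median over members was 158 for complex III (128 to 200 over the columns), 149 for complex II (135 to 171), 129 for complex V (109 to 147), 78.9 for complex I (75.9 to 102) and 45.8 for complex IV (37.6 to 54.4). Complex III was above II in 5 columns and below it in 3. Complexes II, III and V stood above I, and IV was lowest, in all 8. This order rests on few genes of very unequal level. Without COX4NB, a choice made after the data were seen, the median of complex IV was 161 (148 to 192) over 4 genes. Its range overlapped those of complexes II and III, so complex IV was not separated from them. That median is the midpoint of COX7A2L at 45.8 and COX5A at 275. Without COX7A2L as well it was 275 over 3. With means in place of medians, complexes II, III and V stood above I and I above IV in 3 of 8 columns. Per base of the longest transcript this order held in 5 columns. Without the members overlapped on the opposite strand, also a choice made after the data were seen, complex V stood at 96.1, below complex I at 121, and the order held in 0 columns. That choice took SDHC from complex II, UQCR11 from complex III and COX4NB from complex IV. From complex I it took NDUFV1, NDUFS8, NDUFA5, NDUFA9 and NDUFS1, all below its median of 78.9, so that median had to rise. From complex V it took ATP5B, ATP5C1 and ATP5G1, all above its median of 129, so that median had to fall. Beside these complex V genes, with 64418, 18456 and 5895 counts, the opposite-strand loci held 937, 367 and 1001. The part of overlap in their levels was not tested. Summed counts followed the number of members more than their level. Complex I took a median of 0.269% of all counts, complex V 0.200%, complex III 0.132%, complex II 0.0993% and complex IV 0.0393%, in this order in each of the 8 columns. The order of shares also depended on the loci counted. Without loci of a second gene name, complex II took 0.0294%, below complex IV. Without the members overlapped on the opposite strand, complex V took 0.0707%, below complex III at 0.108% and complex II at 0.0884%.

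**Figure D2:**
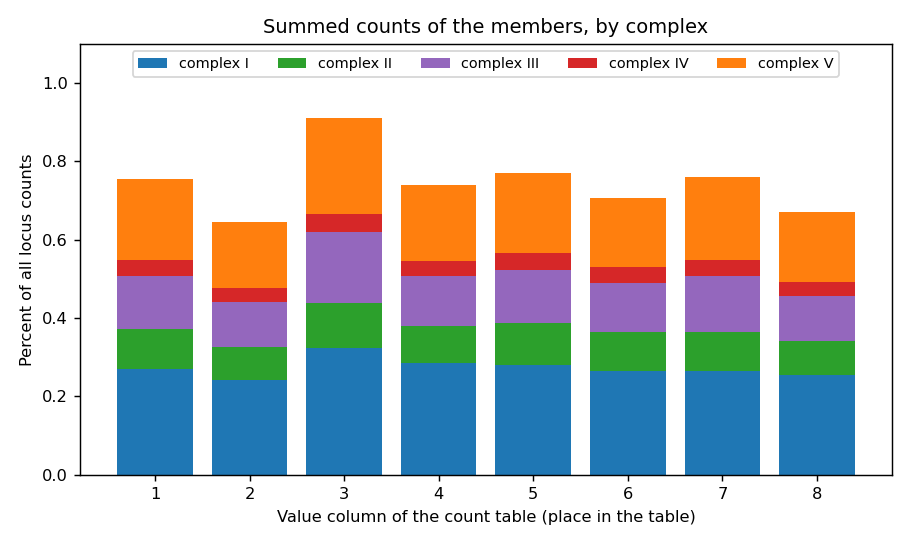
Percent of all locus counts taken by the members of each complex (stacked bars from 0) in each of the 8 unnamed columns of the count table. The sum runs from 0.645% in column 2 to 0.911% in column 3, and complexes I and V take the largest parts throughout.

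Over the columns the members shared a pattern. Column 3 was the highest of the 8 for 34 of 43 members, whereas it was highest for 23.0% of the 6694 loci with an assembled name and at least 10 counts in every column. In column 3 the median member stood 0.28 (log2) above its own median over the columns, and the median of those 6694 loci 0.05 above. Column 2 was the lowest for 23 members, against 15.6% of the loci. The median member there stood at -0.20 and the median locus at -0.03. In all, 40 members were above their own median in column 3 and 34 below it in column 2. Some differed by little, such as NDUFB5 at 0.006 and ATP5J2 at 0.011 in column 3. The like shares of all loci were not counted, so these 2 counts have no background. In the other columns the median member stayed between -0.06 and 0.07. These 2 columns were singled out after their values were seen, and no test was made.

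All 5 complexes took part. In column 3 the median member stood 0.33 above its own median in complex I, 0.20 in complex II, 0.42 in complex III, and 0.23 in both complex IV and complex V. All 6 complex III members and all 5 complex IV members were highest there. UQCRFS1 had a level of 202 in column 3 against 114 to 149 in the other 7 columns. UQCRQ had 555 against 349 to 456. Thus column 3 stood clear of the rest for both. The ratio of summed CPM to that of complex I varied less than the sum itself. For complex II it ran from 0.332 to 0.377, for complex III from 0.451 to 0.559, for complex IV from 0.137 to 0.158 and for complex V from 0.669 to 0.797. The highest column of the whole set was 1.41 times the lowest, and without column 3 the ratio for complex I went from 1.33 to 1.17 and for complex III from 1.56 to 1.22.

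**Figure D3:**
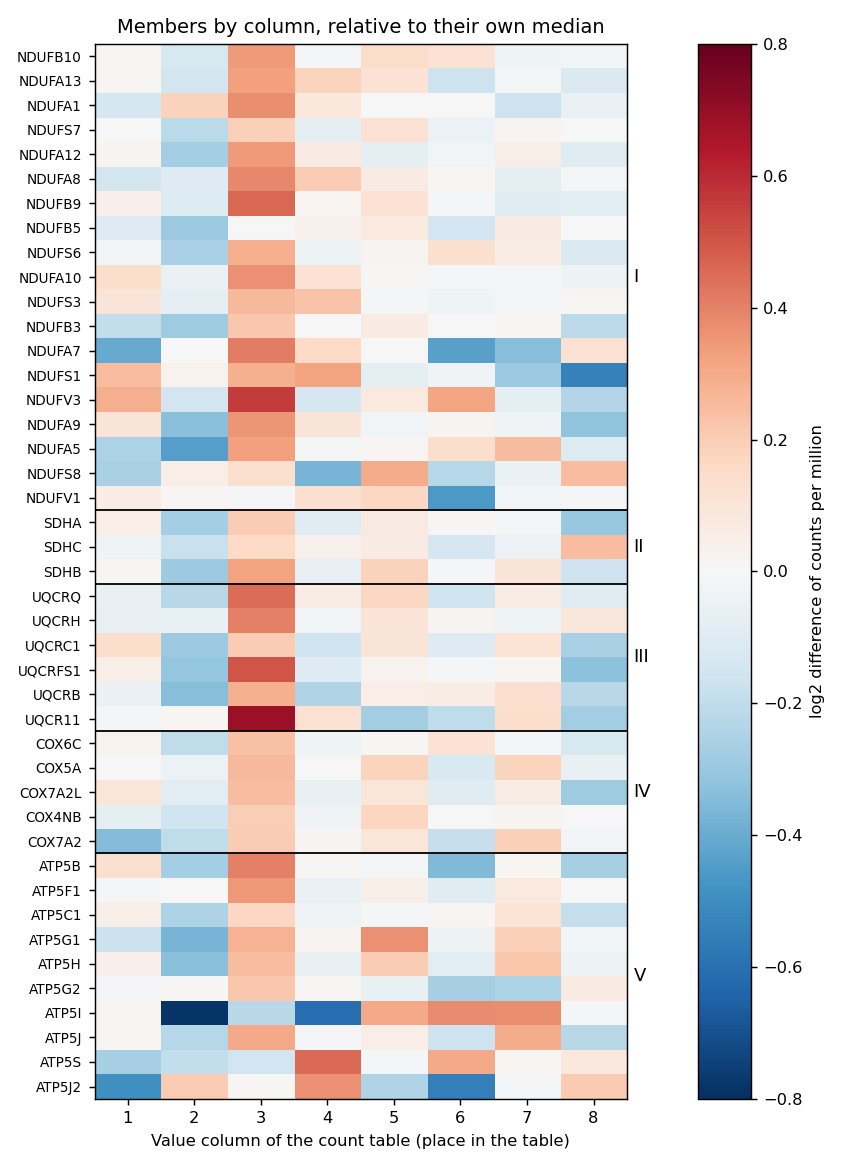
CPM of each member in each column, as the log2 difference from the member's own median over 8 columns (red higher, blue lower), with lines between complexes I to V. Column 3 is red for 40 of the 43 rows, some only faintly, and ATP5I stands out in columns 2 and 4. The like share of all loci was not counted.

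Column 2 was the deepest and column 3 the next, with 12066951 and 9903905 counts, so the 2 deepest columns were the lowest and the highest for the members. The summed CPM of 4 slow or oxidative fibre genes (TNNC1, MYL2, MB and TNNI1, of 7 listed) were also highest in column 3, at 4136, with 3971 in column 5, 1591 in column 2 and the lowest value, 1107, in column 4. Most of this sum was TNNC1, the only one of the 4 that was highest in column 3. MYL2, a slow myosin light chain, was lowest there, with a level of 783 against 2146 in column 6. That level rests on few exonic bases, as MYL2 had 5407 counts in all beside 164990 of TNNC1. MB, the oxygen-binding myoglobin, reached a level of at most 14.0 and TNNI1 at most 6.95. Fibroblast markers were highest in column 7, at 7102, and stood at 1051 in column 3. Endothelial markers ran to 187, in column 7, with 163 in column 3. The part of fibre type or of other cells in the pattern was not tested.

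Of the members only ATP5I had a highest column at least 2 times its lowest, 1 of 43, against 29.7% of the 6694 loci, or 19.5% of the 3059 among them with a level of 10 or more. The median ratio of highest to lowest column was 1.46 among the members, 1.66 among the 6694 loci and 1.52 among the 3059. The next widest were UQCR11 at 1.95, ATP5J2 at 1.88, NDUFS1 at 1.82 and NDUFA7 at 1.80.

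ATP5I was the only member on the Z sex chromosome, from 56415940 to 56418283 on the plus strand. Its level was 104, 60.0, 88.7, 67.8, 127, 134, 134 and 102 in columns 1 to 8. Columns 2 and 4 were lowest and the gap from there to column 3 was wider than that between columns 2 and 4. Relative to their own medians, the 221 assembled loci of chromosome Z with at least 10 counts in every column, ATP5I among them, had median log2 values of -0.43 and -0.41 in columns 2 and 4 and -0.20 in column 3, and between 0.04 and 0.14 in the other 5. Those of ATP5I were -0.78, -0.61 and -0.22 in columns 2, 4 and 3. The cause of this was not tested.

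NDUFS1 and NDUFS7, both core subunits of complex I, differed in their pattern. The level of NDUFS1 was 60.5, 51.9, 62.0, 63.6, 48.3, 50.0, 41.7 and 35.0 in columns 1 to 8, highest in column 4 and lowest in column 8. NDUFS7 had 199, 171, 227, 188, 216, 192, 201 and 198 in the same columns. Thus column 8, the lowest for NDUFS1, was in the middle for NDUFS7. Opposite-strand loci covered 32.0% of the exonic length of NDUFS1.

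In structure the members were compact. The median member had 4 exons on its longest chain, a longest transcript of 1010 bases and a span of 2.96 kb. The same medians over all 7271 loci were 7 exons, 1865 bases and 11.2 kb. Complex II had a median of 8 exons, complexes I, IV and V had 4 and complex III had 3. The most exons stood in NDUFS1 with 17, UQCRC1 with 12, NDUFA9 with 11, and SDHA and ATP5C1 with 10 each. UQCRFS1 was the 1 member with a single exon. The shortest transcript was that of NDUFA13, with 257 bases in 2 exons over 0.517 kb, and the longest span that of NDUFA10, with 39.6 kb.

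The 43 genes had 64 transcripts of the 3 classes: 28 exact matches, 10 contained fragments and 26 variants. A single transcript stood for 30 genes. An exact match stood for 28 of the 43, with 13 of 19 in complex I, 5 of 6 in complex III, 3 of 5 in complex IV and 7 of 10 in complex V. None of the 3 complex II genes had one: SDHA, SDHB and SDHC were assembled as 5 variants and 2 contained fragments. Only contained fragments stood for 5 genes, among them NDUFS1 and NDUFA10. ATP5C1 had 4 transcripts, the most of any member, and ATP5I, ATP5J, NDUFA5, NDUFA9, SDHB and UQCR11 had 3 each.

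A locus on the opposite strand overlapped the exons of 11 of 43 members, a share near the 23.6% of all 7271 loci. Those 11 had a median level of 50.9 (35.0 to 63.6 over columns) and the other 32 had 134 (113 to 165). ATP5B, at 30.2% of its length, was among the 11, so overlap did not go with a low level in every case. A second gene name stood in the loci of 4 members (NDUFB5, NDUFV1, SDHA and UQCR11), against 2.75% of all 7271, and their counts may include reads of the other gene.

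**Figure D4:**
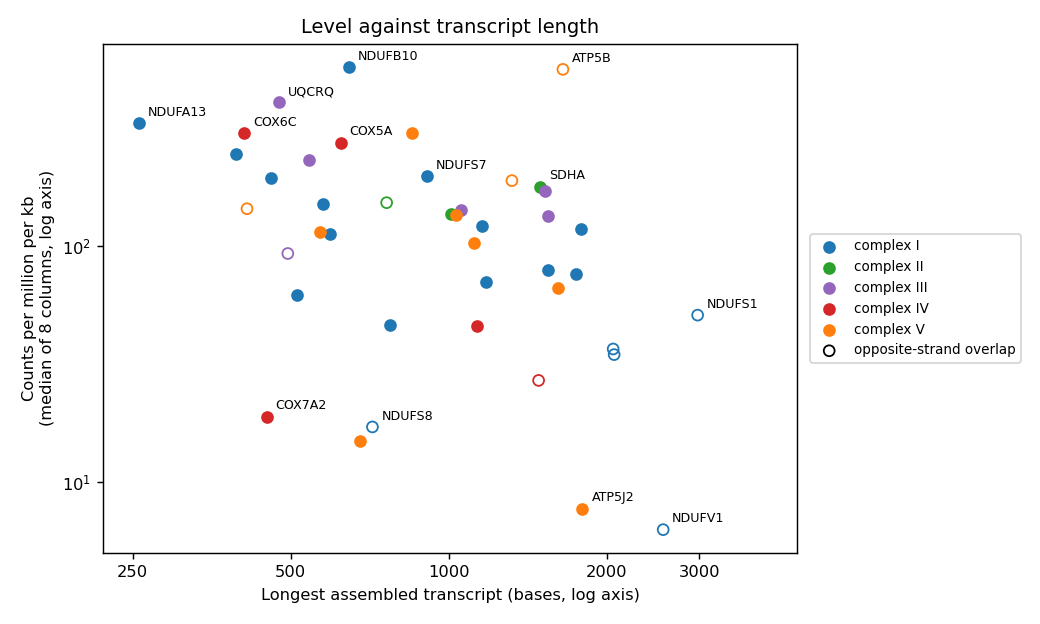
Median level in CPM per kb against the length of the longest assembled transcript in bases (both axes log), coloured by complex, with open circles for members overlapped on the opposite strand. Short transcripts such as those of NDUFA13 and UQCRQ lie high, ATP5B lies high at 1651 bases, and ATP5J2 and NDUFV1 lie lowest.

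Across the 43 genes the Spearman correlation of transcript length with level per kb was -0.43, and with CPM, which does not divide by length, 0.20. This describes genes, which are not independent replicates, and exonic length is part of the first measure.

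The members lay on 20 chromosomes (39 genes) and on unplaced scaffolds (4 genes). Chromosome 1 held 7 of them, chromosomes 3 and 5 held 4 each and chromosome 7 held 3. After NDUFV1 and NDUFS8, the closest pairs were SDHA and NDUFS6 on chromosome 3, 309 kb apart, and ATP5G1 and NDUFA13 on chromosome 29, 621 kb apart.

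Other lists of pathway genes had lower medians than the members. Of 42 listed assembly factors, which build the complexes without being part of them, 20 were assembled, with a median level of 16.6 (gene medians from 1.09 to 141). COX17, a copper chaperone for complex IV, was highest at 141, followed by ACAD9, a complex I assembly factor, at 75.0 and TTC19 of complex III at 65.0. Of 12 listed regulators of mitochondrial genes 9 were assembled, with a median of 4.58. The highest was GABPA, an activator of many respiratory genes, at 22.8. NRF1, the nuclear respiratory factor, stood at 9.37, and the coactivator PPARGC1A at 2.06. Of 22 carriers and enzymes next to the chain 15 were assembled, at a median of 37.4. SLC25A4, the ADP/ATP translocase that exports ATP from mitochondria, stood at 1279 (960.1 to 1722), above every member. COQ9, needed for ubiquinone synthesis, stood at 178 and VDAC1, an outer membrane channel, at 130.

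The same columns were read in these lists. Column 3 was highest for 10 of the 15 carriers, for 7 of 19 assembly factors and for 2 of 9 regulators with at least 10 counts in every column, beside the 23.0% of all loci. Column 2 was lowest for 3, 2 and 2 of them, beside the 15.6%. The summed carriers peaked in column 4, at 6852 CPM. The differences between these lists and the members were not tested.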

How the data were processed

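RNA of 8 breast muscle samples, 4 normal and 4 PSE, was sequenced on an Illumina GAIIx with 2 samples per lane, per the labels. The submitters' processing notes list TopHat, Cufflinks, HTSeq and DESeq and state no version or role. No source used here gives the genome build, the strand protocol or the counting options, so coordinates are those of the deposited annotation. The authors deposited a merged annotation and a table of whole-number counts per locus whose 8 columns have no names. These 8 columns were tied to no sample. They were used as unnamed columns of this series because the table lists the same 23108 loci as the annotation. Values are given as ranges and medians over columns, with no test. An SD over the columns served only as the yardstick for changes under alternatives. Column place was not read as identity.

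Counts were divided by the column total, times 1000000 (CPM), and by the kb of merged exons of the locus (Python 3.11.15, pandas 2.3.3, NumPy 2.4.6), and the calculation was tested on simulated counts. Loci with an assembled gene name numbered 7271. Counts on loci shared by several gene names were not split. Reads without molecular identifiers are not independent molecules, so intervals cover counting error only. The members and gene lists were chosen with earlier results of these data known. The planned comparison of PSE with normal meat was not made. Alternatives changed the total, the length, the classes and the loci counted, and left out each column. Named with values were the 3 highest and 2 lowest members of each complex, paralogue pairs, core and catalytic subunits, and the members with the widest spread, most exons and most transcripts. A search of promoters for motifs was planned and not made, as no sequence was used here.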

Additional observations from a re-analysis of the deposited data

How the results depend on the processing

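No paired analysis was possible because the columns carry no replicate numbers. A value was taken to have moved when it changed by more than 1 SD over the 8 columns, a count when it changed by over 1.5 times, and the ratio of highest to lowest column when its excess over 1 did. Of the values of complexes and counts under an alternative, 249 stayed and 45 moved, and of those of single members 119 stayed and 53 moved. Some that stayed could not move. An alternative that asked for at least 10 counts in every column left out none of the 43 members. Complexes IV and V held no locus of a second gene name. All 43 members moved with the smaller total below. Per base of the longest transcript 10 moved, among them NDUFA10 to 147, NDUFS1 to 83.1, UQCRFS1 to 279 and NDUFV1 to 12.1. The cause was not tested unless stated. Without the 10 loci with most counts the total is smaller, so levels of complexes I to V were 109, 206, 215, 63.2 and 178, and shares 0.369, 0.135, 0.180, 0.0538 and 0.271%. Without loci of a second gene name, fewer genes gave shares of 0.210, 0.0294 and 0.108% for I to III. With exact matches only, complex II had 0 genes and IV had 3, the level of I was 123, and the shares of I, III, IV and V were 0.188, 0.108, 0.0187 and 0.173%. Per base of the longest transcript, levels of I, II and III were 122, 179 and 257, and the order in which II, III and V stand above I, and I above IV, held in 5 columns in place of 8. With means over genes, levels of I, III, IV and V were 132, 194, 134 and 164, and the order held in 3 columns. Under 2 alternatives added after seeing the data the order held in 0 columns. Without names that are not subunits, complex IV stood at 161 with a share of 0.0354%. Without members overlapped on the opposite strand, levels of I, IV and V were 121, 161 and 96.1, and shares of I to V were 0.224, 0.0884, 0.108, 0.0354 and 0.0707%. Leaving out each column in turn moved 4 values and left 124, all 4 without column 3: the ratio of highest to lowest column ranged from 1.17 to 1.33 for I, 1.22 to 1.56 for III, 1.17 to 1.28 for IV and 1.26 to 1.46 for V. Under other scalings, added after seeing the data, column 3 was highest for 32, 32 and 34 members with size factors, TMM and the total without 10 loci, beside 17.6, 18.9 and 21.7% of all loci. Column 2 was lowest for 17 each time, beside 12.9, 12.4 and 11.8%. Depth limits COX7A2, ATP5S, NDUFS8 and ATP5J2, the members with fewest counts, 590 to 964 in all.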

Other observations

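A further 6 names of the chain stood only on transcripts outside the 3 classes and were not members. NDUFA4, first described with complex I and now placed with complex IV, had a transcript marked with no class at a level of 548 CPM per kb of exon (418 to 699). NDUFC2, a complex I subunit, stood at 278 (237 to 398) and NDUFB4 at 110 (101 to 177), both on transcripts that overlap the reference in some other way. ATP5G3, which encodes the same c subunit as ATP5G1 and ATP5G2, stood at 222 (165 to 287). By exonic length the 3 c subunit genes therefore ran from 115 to 222 in their medians. On this measure ATP5G3 overlapped ATP5G1 in range and was clear of ATP5G2. NDUFB1 stood at 48.9 (39.2 to 57.3) over a locus of 3928 exonic bases, and NDUFS4, an accessory subunit, at 19.6 (9.33 to 26.6).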
